A study of Mus musculus with 4 samples.

Results

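The nuclear genes of respiratory complexes II to V, with cytochrome c, were followed in RNA-seq of reconstituted ovaries (rOvaries). The members were the 4 genes of complex II (Sdha, Sdhb, Sdhc and Sdhd), Cyc1, Cycs, 5 named complex IV genes (Cox5a, Cox5b, Cox6c, Cox7b and Cox7c) and every symbol that starts with Uqcr or Atp5, without pseudogene and antisense names. This gave 36 of the 54021 gene symbols counted, with 4 genes in complex II, 9 in complex III, 1 for cytochrome c, 5 in complex IV and 17 in complex V. An rOvary is a graft that forms under the kidney capsule from an aggregate of primordial germ cells with somatic cells of the fetal gonad. By the study's methods, the germ cells and somatic cells came from fetal female gonads of C57BL/6 crosses carrying an actin-GFP transgene, and the recipients were ovariectomized G2 Terc-/- females, the second generation without the telomerase RNA, averaging 10 weeks of age. All groups shared this genotype, the surgery and the graft, and all rOvaries were taken 4 weeks after transplantation. INK128, an inhibitor of the kinase mTOR, was given in the drinking water at 0.75 μM per g according to the labels, where the study's methods state the dose as a concentration in the water, and controls received none. There were 2 INK128-treated libraries (replicates 1 and 2) and 2 control libraries (replicates 1 and 3), and nothing states that they came from separate recipients, so the p-values measure the spread between these libraries. A graft of this kind also holds cells of the recipient, such as blood vessels and kidney left on the graft.

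The respiratory chain sits in the inner mitochondrial membrane. Complex II oxidizes succinate and passes the electrons to ubiquinone, complex III moves them on to cytochrome c, and complex IV uses them to reduce oxygen to water. Complexes III and IV pump protons, and complex V, the ATP synthase, lets the protons flow back through a ring of c subunits and makes ATP in its F1 head. Complex II is encoded in the nucleus alone, whereas complexes III, IV and V also contain subunits encoded by mitochondrial DNA. In the ovary, oocytes are rich in mitochondria, and steroid-producing cells carry out the first step of steroid synthesis in that same membrane.

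Counts summed to between 19130209 and 23029089 per library, and 3 counts, used here as a floor for counting error only, correspond to 0.127 to 0.161 CPM (counts scaled to a common library size). The pair of INK128-treated libraries was more alike (Pearson r of log2 CPM 0.98, with 1.0% of tested genes more than 2-fold apart) than the pair of controls (r 0.806, with 13.8%). Both controls stood apart. Control 1 held 1021 counts of 4 Y-linked genes (Uty, Kdm5d, Ddx3y and Eif2s3y), where the other libraries held 2, 0 and 0, which goes against the stated female sex of donors and recipients. The 10 oocyte markers summed to 25.4 CPM in control 3, against 760.4 CPM in control 1 and 1053 and 778 CPM in the INK128-treated rOvaries. The granulosa cell factor Foxl2 was present in every library, at 371 and 368 CPM with INK128 and 146 and 276 CPM in controls. Other granulosa markers went the other way: Amh, Inhba, Amhr2 and Nr5a2 had higher means in controls. Amh had 435 CPM in control 1 and 5.1 CPM in control 3, against 131 and 80.1 CPM with INK128. Values without 1 of the controls are therefore given for many genes and lists, but not for every gene whose call or value changed.

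Of the 36 members, 8 were upregulated in the INK128-treated rOvaries and none was downregulated, and most of the others lay higher as well. The 8 were the complex III genes Uqcrh and Uqcrq, the complex IV genes Cox6c and Cox7c, and the ATP synthase genes Atp5d, Atp5e, Atp5l and Atp5mpl. A gene was called when edgeR's quasi-likelihood test gave a Benjamini-Hochberg adjusted p below 0.05 over 11758 genes (mean CPM above 10), together with a fold change above 1.5. The 35 members above this limit had 8 called higher, or 22.9%, where 3.18% of all tested genes were called higher. Called lower were 0 of 35 members against 3.19% of all genes, and 0 members reached an unadjusted p below 0.05 in that direction with edgeR, DESeq2 or limma voom. Both INK128-treated libraries lay above both controls for 30 members (85.7%) and for 34.5% of all genes, and below both controls for 0 members and for 34.0% of all genes. The other 5 members, Sdha, Uqcrc2, Cycs, Atp5a1 and Atp5b, had overlapping groups. The median log2 ratio of INK128 over control, the fold change on the log2 scale, was 0.79 over the 35 members, with a range from −0.28 (Sdha) to 1.88 (Atp5k), and −0.03 over all tested genes. The adjusted p-values of the 8 called members ran from 0.0464 to 0.0487 (edgeR), close to the threshold. With DESeq2, 20 members were called higher, where 13.6% of all genes were. Leaving out control 1 gave 21 members called higher and 1 called lower (Sdha), where 22.7% and 23.2% of all genes were. Leaving out control 3 gave 26 and 0, where 21.2% and 21.4% of all genes were, while leaving out either INK128-treated library left 0 calls among all genes. The 8 members called with all 4 libraries were called without control 1 and without control 3 as well, at log2 ratios of 0.90 to 1.68. The members' median moved little with each library left out, from 0.80 to 0.84. By complex, the medians without control 1 were 0.36, 0.72, 0.86 and 0.93 for complexes II, III, IV and V, and those without control 3 were 0.59, 0.84, 1.16 and 0.82. Over the same libraries, summed muscle markers were higher with INK128 (3581 and 3568 CPM against 615 and 1066 CPM) with Acta2 alone at 2559 and 2386 CPM of the treated sums, and kidney markers were lower (70.2 and 147 CPM against 578 and 1330.5 CPM), and their part in the members' changes was not tested. In bulk RNA, more cells of a mitochondria-rich type and more RNA per cell cannot be told apart.

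**Figure D1:**
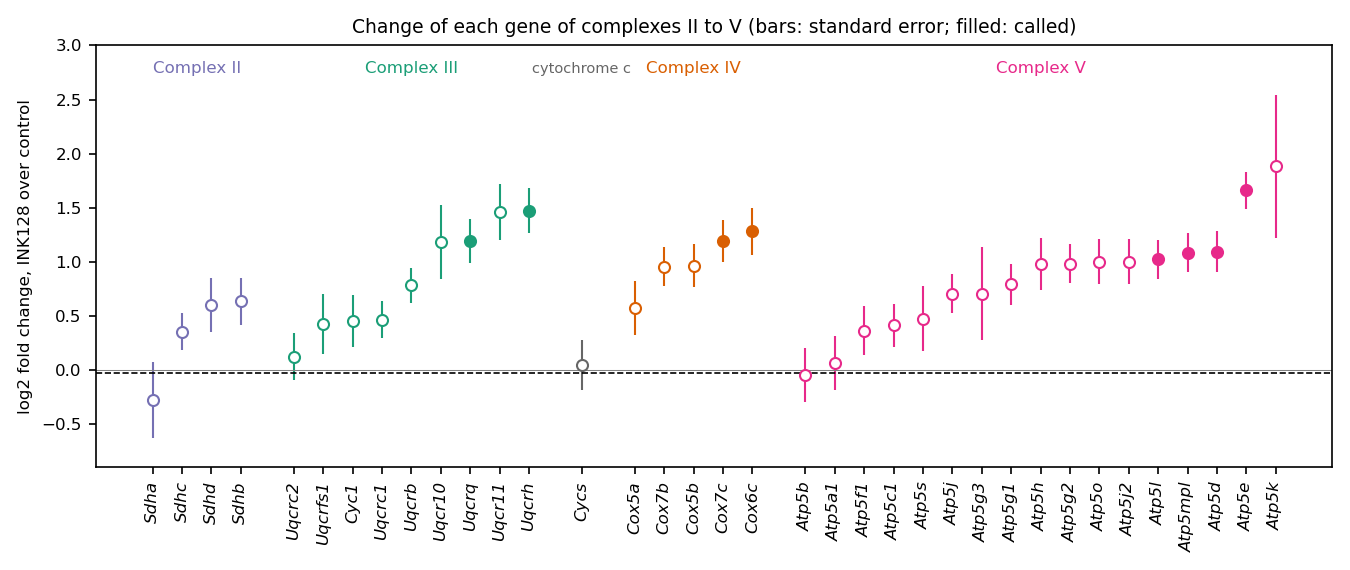
The log2 fold change (INK128 over control, vertical axis) is plotted for each of the 36 genes, grouped by complex, with bars of 1 standard error, filled points for the 8 called genes and a dashed line at the median of all tested genes (−0.03). Within complexes III and V the changes spread from near 0 (Uqcrc2 at 0.12, Atp5b at −0.05) to 1.47 for Uqcrh and 1.88 for Atp5k.

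Transcript length moved with these changes. When tested genes were split into 5 groups of equal size by the length of the principal transcript, the median log2 ratio was 0.68 in the shortest group (up to 1612 bases) and −0.62 in the longest. The members' transcripts were short, with a median of 955 bases against 3001 bases over all tested genes, and 27 of the 35 tested members fell in the shortest group. In that group 12.1% of all genes were called higher and 70.4% lay above both controls, and of its 27 members 8 (29.6%) were called and 27 lay above both controls, with a median of 0.98. The 4 members of the next group (Uqcrc1, Uqcrc2, Atp5a1 and Atp5b) had a median of 0.09, where its genes had 0.27. Next came Sdha, Sdhc and Cycs with 0.04, where the group had −0.03, and then Atp5g1 with 0.79, where it had −0.29. Atp5g1 has 4 equally ranked principal transcripts of 596 to 4715 bases, and the longest of such transcripts was used for every gene. This choice also touched the called genes Uqcrq (405 to 1521 bases), Atp5d (931 to 1410), Atp5mpl (366 to 612) and Cox6c (503 to 738). Across the 35 members the log2 ratio had a Pearson r of −0.77 and a Spearman rho of −0.76 with log2 length, and Pearson r was −0.38 across the 11700 tested genes with a known length. These points share the same 4 libraries, and genes are not independent replicates. When edgeR was fitted with offsets for exon length in each library, the members' median fell to 0.32, and with offsets for principal transcript length to 0.10. No gene of the table was called in either fit, where the smallest adjusted p-values over all genes were 0.0724 and 0.0773 (edgeR). At an unadjusted p below 0.05 (edgeR), 8 and 3 members were higher, as were 1426 and 1173 of the 11758 tested genes. With exon length offsets the 8 genes called without offsets had log2 ratios between 0.36 (Atp5mpl) and 1.24 (Atp5l), with Cox6c at 1.14 and Atp5e at 1.07. With transcript length offsets they lay between 0.08 (Atp5l) and 0.70 (Atp5e).

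**Figure D2:**
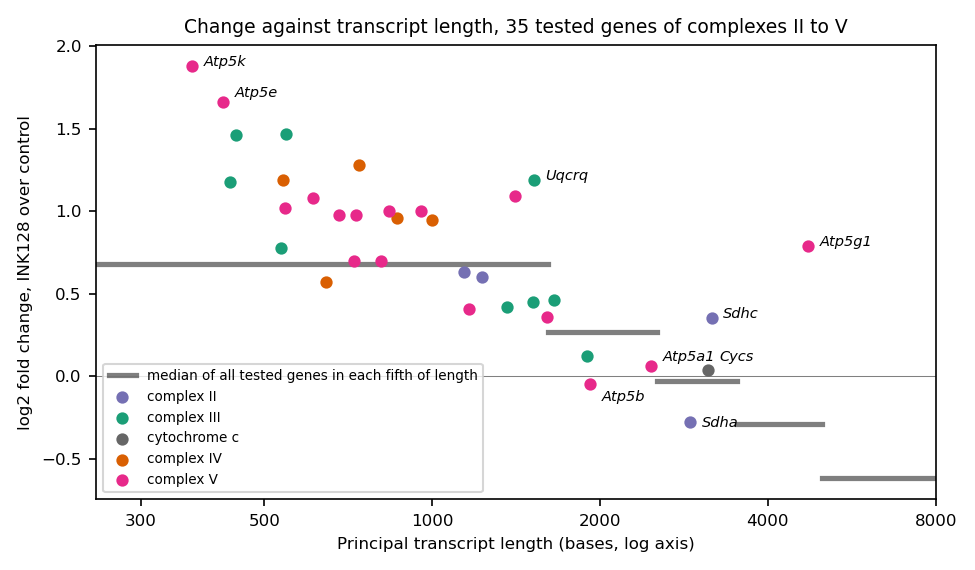
The log2 fold change of the 35 tested members (vertical axis, colour by complex) is plotted against principal transcript length in bases (log axis), with a grey bar at the median of all tested genes in each of 5 length groups; the first and last bars are drawn only within the axis. Genes of up to 955 bases lie between 0.57 and 1.88, and Sdha, Cycs, Atp5a1 and Atp5b, all longer than 1612 bases, lie between −0.28 and 0.06. The other members longer than 1612 bases, Uqcrc2, Sdhc, Uqcrc1 and Atp5g1, lie at 0.12, 0.35, 0.46 and 0.79.

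Complex II had the smallest median, 0.47, and 0 of 4 genes called by edgeR or DESeq2. Sdha, the flavoprotein that holds the succinate-binding site, was counted at 289 and 221 CPM with INK128 and at 219.6 and 399 CPM in controls. The groups overlapped, with control 3 highest, and the log2 ratio was −0.28 (SE 0.35; edgeR adjusted p = 0.584). Without control 3 it became 0.22 (edgeR adjusted p = 0.441), and without control 1 it became −0.65 (edgeR adjusted p = 0.0260), the only call of a member as lower with 1 library left out. Sdhb, the iron-sulfur subunit, had 151 and 130 CPM with INK128 and 77.7 and 103 CPM in controls. Both treated libraries lay above both controls, but the log2 ratio of 0.63 (standard error 0.22) had an adjusted p of 0.117 in edgeR. The membrane anchors Sdhc and Sdhd lay above both controls too, at log2 ratios of 0.35 (edgeR adjusted p = 0.200) and 0.60 (edgeR adjusted p = 0.156). Without control 3 edgeR called Sdhb and Sdhd higher, at 0.85 and 0.89 (adjusted p = 0.00493 and 0.00387), whereas without control 1 they had 0.44 and 0.35 and were not called. With offsets for transcript length the complex II median was −0.07.

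Within complex III, the median log2 ratio was 1.19 for the 5 small accessory subunits and 0.44 for the 4 catalytic and core subunits. Without control 1 these medians were 1.19 and 0.20, and without control 3 they were 1.26 and 0.53. The accessory subunits surround the core in the membrane and carry no redox centre. Uqcrh, the hinge protein beside cytochrome c1, lies on chromosome 4 from 116066965 to 116075071 (GRCm38) and was counted at 247 and 258 CPM with INK128 and at 78.7 and 103 CPM in controls. Its log2 ratio was 1.47 (SE 0.21; edgeR adjusted p = 0.0464). Uqcrq, on chromosome 11 from 53427922 to 53430831, had 201 and 247 CPM with INK128 and 93.7 and 103 CPM in controls, with no overlap. It rose by 1.19 on the log2 scale (SE 0.20; edgeR adjusted p = 0.0480). Uqcr11, Uqcr10 and Uqcrb had log2 ratios of 1.46, 1.18 and 0.78, with adjusted p-values of 0.0507, 0.0875 and 0.0551 in edgeR, and all lay above both controls. DESeq2 called the 5 accessory genes. With control 1 left out, Uqcr11, Uqcr10 and Uqcrb had log2 ratios of 1.19, 1.43 and 0.72. With control 3 left out they had 1.79, 0.98 and 0.84. For Uqcr10 the treated libraries themselves were far apart, at 114 and 199 CPM. Among the genes of the electron path and the core, Cyc1 (cytochrome c1), Uqcrfs1 (the Rieske iron-sulfur protein) and Uqcrc1 (a core protein) lay above both controls at log2 ratios of 0.45, 0.42 and 0.46, with edgeR adjusted p-values of 0.130 to 0.334. Without control 1 Cyc1 and Uqcrfs1 had 0.28 and 0.11, and without control 3 they had 0.65 and 0.81 and were called higher (adjusted p = 0.0299 and 0.00597, edgeR). The second core protein gene, Uqcrc2, had 168 and 192 CPM with INK128 and 143 and 189 CPM in controls, so the groups overlapped (log2 ratio 0.12, adjusted p = 0.713, edgeR). The 5 accessory genes have a median transcript length of 535 bases, and the other 4 have one of 1586.5 bases. With offsets for transcript length the medians were 0.49 and −0.12.

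Cycs, the cytochrome c of somatic cells that ferries electrons from complex III to complex IV, had a log2 ratio near 0. It was counted at 118 and 104 CPM with INK128 and at 125 and 90.5 CPM in controls. The treated libraries lay between the controls, and the log2 ratio was 0.04 (SE 0.23; edgeR adjusted p = 0.907). Its sign turned to −0.08 under scaling by library totals, which moved the median of all genes to −0.15. Near-identical copies of Cycs elsewhere in the genome had counts equal to 6.95 to 10.1% of its own.

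The 5 complex IV members are accessory subunits around the catalytic core, and all of them lay above both controls, with a median of 0.96. Cox6c, on chromosome 15 from 35925886 to 35938246, was counted at 332 and 449 CPM with INK128 and at 164 and 157 CPM in controls. The lowest treated library was above the highest control, and the log2 ratio was 1.28 (SE 0.22; edgeR adjusted p = 0.0487). Exons of Cox6c overlap those of Vps13b on the opposite strand over 250 bases, and the kit was not stated to keep the strand, so reads there cannot be told apart. Cox7c, on chromosome 13 from 86044816 to 86046904, had 267 and 279.9 CPM with INK128 and 109 and 131 CPM in controls, and rose by 1.19 (SE 0.19; edgeR adjusted p = 0.0464). Cox5b, the zinc-binding subunit, and Cox7b had log2 ratios of 0.96 and 0.95 with adjusted p-values of 0.0550 and 0.0512 in edgeR, just outside the threshold. DESeq2 called both higher (adjusted p = 0.00158 and 0.000565). Their log2 ratios were 0.79 and 0.86 without control 1 and 1.16 and 1.04 without control 3. Cox5a, on the matrix side, had the smallest value, with 102 and 129 CPM under INK128 against 90.3 and 65.3 CPM in controls. Its log2 ratio of 0.57 had an adjusted p of 0.173 in edgeR. It was called higher without control 1, at 0.82 (edgeR adjusted p = 0.00745), and had 0.35 without control 3. With offsets for transcript length the complex IV median was 0.18.

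In complex V the 2 genes of the catalytic F1 head had log2 ratios near 0, while genes of the stalks, the c ring and the membrane part lay higher. The F1 head is a hexamer of alternating α and β subunits. Atp5b, the β subunit that carries the catalytic sites, was counted at 1037 and 1025 CPM with INK128 and at 863 and 1268 CPM in controls. The treated libraries were alike and sat between the controls, with a log2 ratio of −0.05 (SE 0.25; edgeR adjusted p = 0.899). Atp5a1, the α subunit, had 866 and 741 CPM with INK128 and 639 and 899 CPM in controls, which overlapped as well (log2 ratio 0.06, adjusted p = 0.868, edgeR). For both genes the sign turned with 1 control left out: Atp5b moved to 0.26 without control 3 and Atp5a1 to −0.16 without control 1. The 2 head genes have a median transcript length of 2193.5 bases. For the central stalk, peripheral stalk, c ring and membrane part the medians are 1166, 823.5, 731 and 578 bases. With offsets for transcript length the median log2 ratio was −0.24 for the head. For the other parts, in the same order, it was 0.53, −0.01, 0.10 and 0.19.

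**Figure D3:**
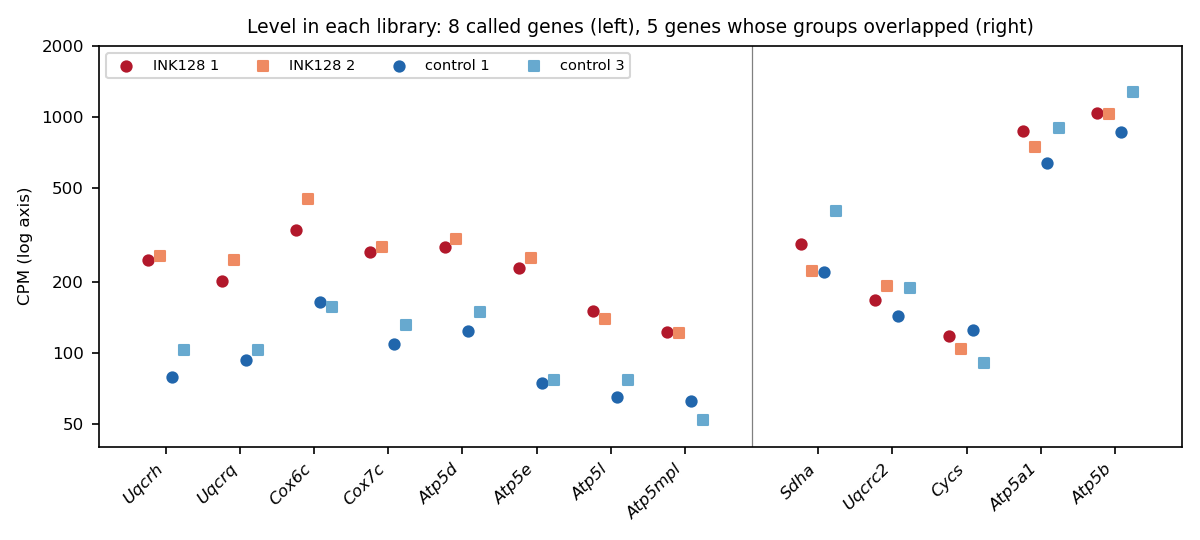
The CPM in each of the 4 libraries (log axis) is shown for the 8 called genes on the left and the 5 genes with overlapping groups on the right, with red points for INK128 and blue points for control. The treated points lie above both controls for each gene on the left, whereas on the right at least 1 control lies among or above the treated points, such as Sdha at 399 CPM in control 3.

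The central stalk turns inside the head and links it to the c ring. Atp5e, its ε subunit, had the smallest p-value of the members, at 228 and 252 CPM in treated rOvaries against 74.7 and 76.8 CPM in controls. The controls, which differed in many other genes, were nearly equal here. The log2 ratio was 1.66 (SE 0.17; edgeR adjusted p = 0.0464), a 3.17-fold difference, for this gene on chromosome 2 from 174461072 to 174464105. Atp5d, the δ subunit, lies on chromosome 10 from 80138632 to 80145818 and had 280.4 and 303 CPM with INK128 and 124 and 149 CPM in controls. It rose by 1.09 on the log2 scale (SE 0.19; edgeR adjusted p = 0.0487). Atp5c1, the γ subunit that forms the shaft itself, had a log2 ratio of 0.41 (edgeR adjusted p = 0.203), although both treated libraries lay above both controls. Per kilobase of principal transcript, Atp5e stood at 541 and 598 CPM in treated rOvaries, beside 541 and 535 for Atp5b. In controls the levels per kilobase were 177 and 182 for Atp5e and 450 and 662 for Atp5b.

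The peripheral stalk holds the head still, and 0 of its 4 genes were called by edgeR, while DESeq2 called 3 of them. Atp5o (OSCP), Atp5h (subunit d), Atp5j (subunit F6) and Atp5f1 (subunit b) had log2 ratios of 1.0, 0.98, 0.70 and 0.36, with adjusted p-values of 0.0562, 0.0653, 0.0750 and 0.321 in edgeR. The treated libraries lay above both controls for each. With control 1 left out, Atp5o, Atp5h and Atp5j had log2 ratios of 1.18, 1.26 and 0.62. With control 3 left out they had 0.83, 0.75 and 0.79. Atp5f1 had 0.13 without control 1, and without control 3 it had 0.62 and was called higher (edgeR adjusted p = 0.0228). Near-identical copies of Atp5h had counts equal to 13.7 to 20.6% of its own. The level of Atp5h is uncertain by an amount that was not measured, because multi-mapping settings were not given.

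The c ring, the rotor that protons turn, is built from 1 mature protein encoded by 3 genes that differ in their import sequence. Their sum was 780.3 and 726 CPM with INK128 and 334 and 539 CPM in controls. Atp5g2 had 192 and 227 CPM with INK128 against 105 and 107 CPM in controls, a log2 ratio of 0.98 (edgeR adjusted p = 0.0507). Atp5g1 had 132 and 108 CPM against 71.3 and 67.1 CPM, a log2 ratio of 0.79 (edgeR adjusted p = 0.0626). For these genes the controls were close together and below both treated libraries. DESeq2 called Atp5g2 and Atp5g1 higher (adjusted p = 8.82e-05 and 0.00666). Their log2 ratios were 0.96 and 0.84 without control 1 and 1.0 and 0.75 without control 3. Atp5g3 had 456 and 391 CPM against 158 and 364 CPM, so the controls differed more than 2-fold between themselves (log2 ratio 0.70, standard error 0.43, adjusted p = 0.297, edgeR). Without control 1 it was 0.22 and without control 3 it was 1.43. A near-identical copy of Atp5g1, Gm10039, had counts equal to 21.7 to 26.2% of its own.

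The 4 small membrane subunits were between 1.0 and 1.88 on the log2 scale. They sit beside the c ring, and subunits e and g also join ATP synthase dimers. Atp5l, subunit g, on chromosome 9 from 44912557 to 44920742, had 149.9 and 139 CPM with INK128 and 65.3 and 77.1 CPM in controls, and rose by 1.02 (SE 0.18; edgeR adjusted p = 0.0487). It has 8 near-identical copies in the genome whose counts came to between 30.3 and 40.2% of its own, so reads may have been split among them, and 133 bases of its exons overlap the antisense gene Gm30934. Atp5mpl, the 6.8-kDa proteolipid, on chromosome 12 from 111961375 to 111966977, had 122 and 121 CPM with INK128 and 62.7 and 52.0 CPM in controls. It rose by 1.08 (SE 0.18; edgeR adjusted p = 0.0484), with nearly equal treated libraries. Atp5k, subunit e, had the largest log2 ratio, 1.88, with 56.3 and 46.8 CPM against 5.80 and 22.1 CPM. Its controls lay more than 2-fold apart, and the standard error was 0.66. Atp5k was not called by edgeR (adjusted p = 0.121), while DESeq2 called it higher (adjusted p = 0.0213). Without control 1 its log2 ratio was 1.22, below those of Atp5e (1.64) and Uqcr10 (1.43), and without control 3 it was 3.15. Atp5j2, subunit f, had a log2 ratio of 1.0 (edgeR adjusted p = 0.0556).

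Atp5s fits the naming rule but is a coupling factor, not a structural subunit, and it fell below the limit on expression. It was counted at 9.72 and 9.34 CPM with INK128 and at 6.91 and 7.38 CPM in controls. In a wider fit of 17631 genes (mean CPM above 1), its log2 ratio was 0.47 (SE 0.30; edgeR adjusted p = 0.329). In that wider fit 0 of all genes were called, members included, and the smallest adjusted p over all genes was 0.0555 (edgeR). At an unadjusted p below 0.05 (edgeR), 23 members were higher, as were 2664 of the 17631 genes.

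Summed over the 36 members, the nuclear genes made up 8230.3 and 8506 CPM with INK128 and 5063 and 6329.9 CPM in controls, or 0.802% and 0.803% against 0.530% and 0.658% of all counts. The 6 subunits of complexes III, IV and V that are encoded by mitochondrial DNA did not separate in this way. They summed to 8627 and 20936 CPM with INK128 and to 22067 and 12175 CPM in controls. The treated libraries were the lowest and the second highest of the 4. Nearly all of this sum came from mt-Co1, the catalytic subunit of complex IV, and mt-Cytb, the cytochrome b of complex III. The others had 6.98 to 135 CPM, where mt-Co1 had 5198 to 15427 CPM. Near-identical copies were searched for the members only, not for these genes. With edgeR, 0 of the 6 were called, while DESeq2 called mt-Atp8 lower, and their median log2 ratio was −0.13. The median turned with the control left out, to 0.35 without control 1 and to −0.56 without control 3. The values were −1.51 for mt-Atp8 (adjusted p = 0.0961 in edgeR and 0.0190 in DESeq2), −0.51 for mt-Atp6, −0.38 for mt-Co1, 0.11 for mt-Cytb, 0.22 for mt-Co3 and 0.87 for mt-Co2 (edgeR adjusted p = 0.272). For mt-Atp8, a small membrane subunit of complex V, counts were low, at 6.98 and 12.8 CPM against 36.2 and 20.4 CPM.

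**Figure D4:**
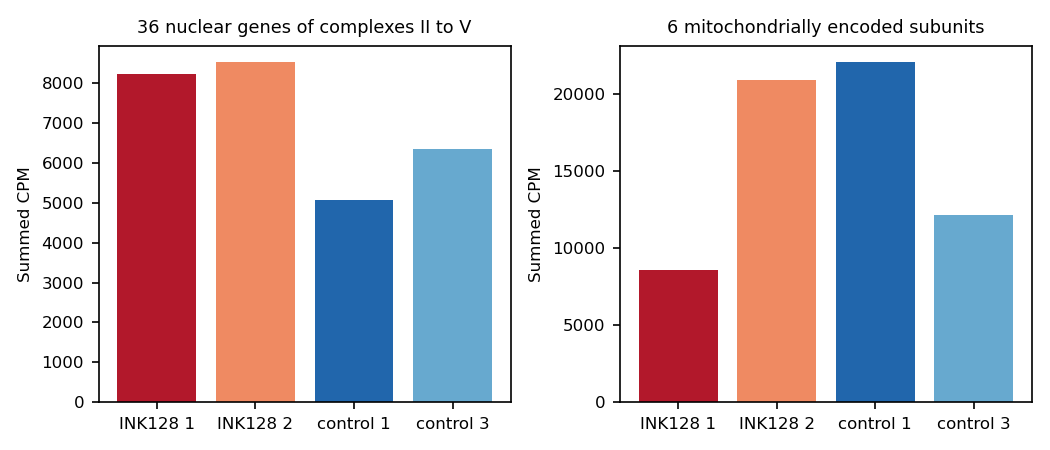
Bars give the summed CPM in each library of the 36 nuclear genes (left) and of the 6 mitochondrially encoded subunits of complexes III, IV and V (right). The nuclear sums are higher in both INK128-treated libraries (8230.3 and 8506) than in both controls, whereas the mitochondrial sums overlap, from 8627 in INK128 1 to 22067 in control 1.

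Complex IV has further nuclear subunits, and 12 of them were examined, of which 8 passed the limit. EdgeR called 2 of these higher, where it called 3.18% of all genes, and DESeq2 called 7, where it called 13.6%. Cox4i1, the ubiquitous form of subunit 4, had 601 and 741 CPM with INK128 and 305 and 265 CPM in controls, a rise of 1.23 on the log2 scale (edgeR adjusted p = 0.0486). Cox6b2, known as the testis form of subunit 6b, had 25.9 and 33.6 CPM against 8.41 and 8.43 CPM, a rise of 1.82 (edgeR adjusted p = 0.0464). The 8 had a median of 0.97 and lay above both controls without exception, down to Cox8a at 0.49 and Ndufa4 at 0.83. With offsets for transcript length the median was 0.08, with Cox8a at −0.44 and Ndufa4 at −0.09.

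Assembly factors, which build the complexes but stay out of them, had a wider spread. Of all tested genes, edgeR called 3.18% higher and 3.19% lower, and DESeq2 called 13.6% and 15.1%. For complex II, edgeR called 0 of 3 tested factors, with 2 at an unadjusted p below 0.05, and DESeq2 called Sdhaf1 higher. Sdhaf4 and Sdhaf1 had the largest log2 ratios, 1.04 and 0.87. For complex III, edgeR called 1 of 5: Uqcc2, needed for cytochrome b synthesis, had 86.3 and 102 CPM with INK128 and 39.1 and 28.5 CPM in controls, a rise of 1.48 (edgeR adjusted p = 0.0470). Next came Uqcc3 at 0.93, while Bcs1l and Uqcc1 had 0.27 and 0.36. For complex IV, edgeR called 2 of 21 higher and 1 lower, and DESeq2 called 8 and 2. Cox14 and Coa3, early assembly partners of mt-Co1, rose by 1.12 and 1.04 (adjusted p = 0.0486 for both, edgeR). Coa5 was the only gene of the assembly lists that edgeR called lower, from 112 and 117 CPM in controls to 58.0 and 53.1 CPM with INK128, at −1.04 (edgeR adjusted p = 0.0464). Pet100 had the largest value at 1.37 (edgeR adjusted p = 0.0540), and Cox15, which makes heme a, had −0.64 (adjusted p = 0.0950 in edgeR and 0.0483 in DESeq2). For complex V, edgeR called 1 of 5: Fmc1 had 39.3 and 46.9 CPM with INK128 and 13.3 and 15.1 CPM in controls and rose by 1.60 (edgeR adjusted p = 0.0464). The inhibitor gene Atpif1 had 0.87 (edgeR adjusted p = 0.106), the F1 assembly factors Atpaf1 and Atpaf2 had −0.08 and 0.45, and Tmem70, which acts in assembly of the membrane part, had 0.41. With offsets for transcript length, 0 of these genes were called, although Coa5 still had −0.87, and the list medians were 0.37, 0.27, 0.01 and −0.04 for complexes II, III, IV and V.

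**Figure D5:**
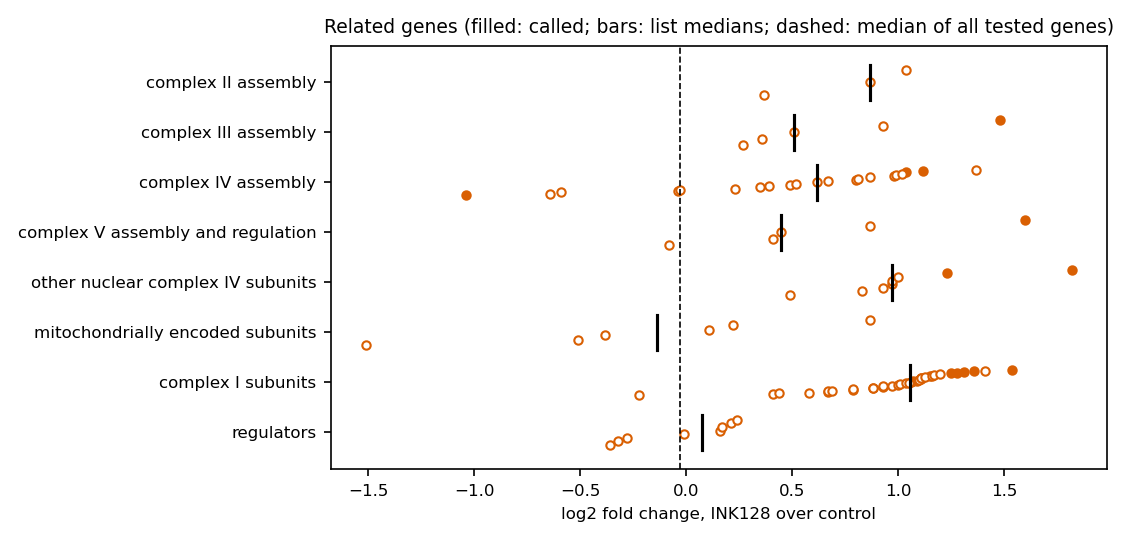
Each point is the log2 fold change (INK128 over control, horizontal axis) of 1 tested gene of the related lists, filled when called, with a bar at the list median and a dashed line at the median of all tested genes (−0.03). Complex I subunits centre on 1.06 and further complex IV subunits on 0.97, the mitochondrially encoded subunits spread from −1.51 to 0.87, and the regulators stay between −0.36 and 0.24.

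Complex I, the other entry point of electrons, had 11 of 36 tested subunits called higher and 0 lower by edgeR (3.18% of all genes were called higher) and 25 called higher by DESeq2 (13.6% of all genes), with a median of 1.06 that became 0.27 with offsets for transcript length. Without control 1 edgeR called 31 higher and 1 lower, and without control 3 it called 33 and 0, where 22.7% and 21.2% of all genes were called higher. The 11 were Ndufa2, Ndufa5, Ndufa7, Ndufa13, Ndufb2, Ndufb4, Ndufb7, Ndufb8, Ndufb10, Ndufs5 and Ndufv2, with log2 ratios between 1.06 and 1.54. Ndufa2 at 1.54 and Ndufa11 at 1.41 (edgeR adjusted p = 0.0706) had the largest values. The smallest were Ndufs1, the largest iron-sulfur subunit, at −0.22 (edgeR adjusted p = 0.652) and Ndufa9 at 0.41 (edgeR adjusted p = 0.266). Among 10 regulators of nuclear respiratory genes, 8 passed the limit and 0 were called in either direction by edgeR or DESeq2 or had an unadjusted p below 0.05 in edgeR, with a median of 0.07. The highest were Tfam and Gabpb1 at 0.24 and 0.21, and the lowest were the coactivator gene Pprc1 at −0.36 and Yy1 at −0.32, with edgeR adjusted p-values of 0.241 to 0.506. Ppargc1a, the coactivator PGC-1α, was too low for the limit, with 2.47 and 1.70 CPM under INK128 against 7.22 and 10.3 CPM in controls. In the wider fit its log2 ratio was −2.01 (edgeR adjusted p = 0.0669), with both treated libraries below both controls.

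Promoters of the members are shown because several of these regulators bind short motifs near the start of respiratory genes. RefSeq promoters on GRCm38.p6, from 250 bases before to 50 bases after the start, were found for 26 of the 36 members, with 29 promoters in all. The 150 bases before the start are printed for the 3 called genes with a match there and for Cycs, with any match of the searched motifs in capitals. The other called genes with a promoter in the table, Cox7c and Atp5d, had 0 matches in these bases. In Atp5e the capitals mark the ETS/GABP motif CCGGAAG, read on the other strand, and then the SP1 motif GGGCGG. In Uqcrh they mark the ETS/GABP motif and in Atp5l the ERR motif AAGGTCA, both on the other strand. In Cycs they mark the NRF1 motif CGCATGCG and then the short CRE motif TGACGT on the other strand.
Atp5e, chr2:174464102-174464251, minus strand: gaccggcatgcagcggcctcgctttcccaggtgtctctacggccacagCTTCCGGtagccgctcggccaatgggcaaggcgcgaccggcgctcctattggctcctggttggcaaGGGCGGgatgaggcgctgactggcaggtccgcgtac
Uqcrh, chr4:116075071-116075220, minus strand: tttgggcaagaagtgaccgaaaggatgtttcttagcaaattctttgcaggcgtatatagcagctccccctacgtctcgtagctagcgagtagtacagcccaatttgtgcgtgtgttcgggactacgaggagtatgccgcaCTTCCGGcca
Atp5l, chr9:44920743-44920892, minus strand: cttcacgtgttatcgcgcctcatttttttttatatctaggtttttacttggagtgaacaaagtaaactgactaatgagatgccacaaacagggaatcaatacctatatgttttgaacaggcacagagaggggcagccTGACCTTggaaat
Cycs, chr6:50566570-50566719, minus strand: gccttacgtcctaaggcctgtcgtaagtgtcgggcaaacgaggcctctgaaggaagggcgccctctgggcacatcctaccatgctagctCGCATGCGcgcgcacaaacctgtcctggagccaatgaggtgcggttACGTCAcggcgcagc

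Over the whole window and both strands, the NRF1 motif CGCATGCG stood in 7 of the 29 promoters of members (24.1%), in 1.87% of all 32851 promoters and in 3.87% of the 11296 promoters of tested genes. The 7 genes were Uqcrc1, Uqcr11, Cycs, Atp5j, Atp5g2, Atp5k and Atp5l. The ETS/GABP motif was found in 31.0% of the members' promoters and in 17.4% of those of tested genes, and the ERR motif in 17.2% and 3.09%. The CRE motif TGACGTCA was found in 6.90% and 2.97%. The SP1 motif, in contrast, was found in 27.6% and 63.7%, and the YY1 motif ATGGCGG in 6.90% and 8.21%. Promoters with the NRF1 motif belonged to genes with high and with low ratios: Atp5k had a log2 ratio of 1.88 and Cycs had 0.04. The median log2 ratio was 0.98 for the members with the NRF1 motif and 0.95 for those without it. For the ETS/GABP motif the medians were 1.02 and 0.79, and for the ERR motif 1.02 and 0.95. They lay the other way round for the SP1 motif (0.62 and 0.99), the YY1 motif (0.32 and 0.97) and the CRE motif (0.23 and 0.97), the last 2 of which stood in 2 members each. The match is to letters only, and says nothing of binding.

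Markers of other cell types differed between these libraries as well. Of the 12 muscle markers, 6 of 6 tested were higher with INK128 and edgeR called 3, Acta2, Cnn1 and Tnnt2, while DESeq2 called 6. The striated muscle genes Acta1, Ckm and Mb went the other way, lower in both treated libraries and below 3 CPM throughout. Of the 12 kidney markers, 9 of 9 tested were lower, and edgeR called 4 (Lrp2, Slc34a1, Cdh16 and Slc22a6) and DESeq2 called 8. Nphs1, a kidney marker below the limit, went the other way, at 7.41 and 8.79 CPM with INK128 against 3.67 and 6.37 CPM. Of the 8 oocyte markers tested, 0 were called by edgeR or DESeq2 or had an unadjusted p below 0.05 in edgeR, although 6 lay above both controls. Control 3 had 7.13 CPM of the oocyte factor Gdf9, where the other libraries had 256 to 454 CPM. Immune markers had 195 and 193 CPM against 330 and 519 CPM. Of the 6 immune markers tested, edgeR called 0, with 4 at an unadjusted p below 0.05, and DESeq2 called 5 lower (Ptprc, Adgre1, Itgam, Lyz2 and Csf1r). Granulosa markers had 5917 and 7713 CPM against 3119 and 6013 CPM, and theca and steroidogenic markers 4028 and 5177 CPM against 884 and 10836 CPM. For these lists edgeR called 0, with 1 granulosa and 0 theca markers at an unadjusted p below 0.05, and DESeq2 called Inha higher and Star lower. The groups overlapped for both sums, and the lowest and the highest theca sums were in controls. Red blood cell markers, mostly globins, had 97.4 and 91.4 CPM against 22.3 and 56.7 CPM, while Alas2 of that list was lower in both treated libraries. Brown fat markers had 5.90 and 6.85 CPM against 54.7 and 16.4 CPM, with Ucp1 at 0 in every library. The brown fat sums of controls came mainly from Cidea in control 1 (50.6 CPM) and Ppara in control 3 (15.7 CPM), and Cox8b, a complex IV subunit, went the other way, at 4.24 and 5.38 CPM against 0.531 and 0.633 CPM. Without control 1 the median log2 ratios of the muscle, kidney and oocyte lists were 1.61, −4.61 and 5.18. Without control 3 they were 2.54, −3.31 and 0.24. The median of the theca list was −1.26 without control 1 and 3.05 without control 3.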

How the data were processed

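RNA-seq counts of 4 rOvary libraries were used. According to the study's methods and the submitters' processing notes, the libraries were prepared with the NEBNext Ultra kit, and reads were trimmed with Trimmomatic, aligned to mm10 with Hisat2 and counted per gene with featureCounts. Strand and multi-mapping settings were not given in the sources used here. The deposited table of the authors holds raw counts for each symbol, not normalized and not pooled. Columns were assigned to libraries by name.

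From these counts, CPM were computed with TMM factors, and groups were compared by edgeR 4.0.16 (R 4.3.3) quasi-likelihood tests over 11758 genes (mean CPM above 10), fitted to all 4 libraries (common dispersion 0.0949). The thresholds and the CPM limit of 10 followed the study, which used DESeq2. Applying the limit to the mean of the 4 libraries was a choice made here. Standard errors were derived from the F statistic, and SD has n = 2. DESeq2 1.42.0, limma 3.58.1 (voom), other scalings and filters, exon-length offsets (lowess span 0.3) and each library left out were alternatives. Offsets for principal transcript length, and alternatives for assembly factors, were added after seeing the data. Scripts were tested on simulated data. The replicate libraries differed beyond counting noise (chi-square per degree of freedom 40.9 and 227). The smallest two-sided p that exact permutation of 2 against 2 libraries allows for a single gene is 0.333.

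Lengths, positions and overlaps came from GENCODE release M21 (GRCm38), and promoters from RefSeq. Near-identical copies matched at least 95% over at least 90% of a coding sequence. Members and lists were chosen with earlier results of these data known. Values per library were given for called members, the extremes of each complex, members with overlapping groups and the c-ring genes. From other lists, called genes and extremes were named, with values per library for some of them only. Genes named beyond this were chosen after their values were seen.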

Additional observations from a re-analysis of the deposited data

How the results depend on the processing

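Members called higher, 8 in the edgeR test, numbered 20 with DESeq2, 16 with CPM above 10 in all 4 libraries, 19 with at least 1 count, 19 at an adjusted p below 0.1, 5 with library totals, and 0 with limma voom, a mean CPM above 1, exon length offsets or principal transcript length offsets. Those 4 fits called 0 of all genes. In them 22, 23, 8 and 3 members had an unadjusted p below 0.05 and higher expression. Over all genes these counts were 2151, 2664, 1426 and 1173, out of 17631 genes with a mean CPM above 1 and 11758 otherwise. Leaving out 1 library gave from 0 to 26, with 0 without either INK128 replicate (15 and 10 members at an unadjusted p below 0.05), 21 without control 1 and 26 without control 3. Of all genes, 3.18% were called higher in the edgeR test, 13.6% with DESeq2 and 8.0% with CPM above 10 in all 4 libraries. The share was 3.66% with at least 1 count, 13.1% at an adjusted p below 0.1 and 2.47% with library totals. Members called lower, 0 in the edgeR test, ranged from 0 to 1 with 1 library left out (Sdha without control 1). Among assembly factors and other genes of complexes II to V, 6 called higher became 20 with DESeq2, 12 with CPM above 10 in all 4 libraries, 17 with at least 1 count, 0 in the 4 fits named above, and 0 to 25 with a library left out. The 1 called lower became 3, 1, 2, 0 and 0 to 4 in the same order.

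The median log2 fold changes moved most with length. With exon length offsets they were 0.32 over all members and 0.00, 0.39, 0.31 and 0.41 for complexes II, III, IV and V, and with principal transcript length offsets 0.10 and −0.07, 0.02, 0.18 and 0.10. With library totals they were 0.67 over all members, 0.66 for complex III, 0.84 for complex IV and 0.86 for complex V. The complex V medians of replicate libraries lay so close together that this median also moved beyond their spread, to 0.96, 0.99, 1.02, 0.99 and 1.03 with CPM above 10 in all 4 libraries, TMM without ribosomal protein genes, at least 1 count, limma voom and a mean CPM above 1. It ranged from 0.82 to 0.95 with 1 library left out, and the complex IV median from 0.86 to 1.16.

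Signs turned with exon length offsets for Sdhd (−0.14), Cyc1 (−0.03), Uqcrfs1 (−0.29), Uqcrc2 (−0.27), Cycs (−0.13), Atp5a1 (−0.18) and Atp5c1 (−0.13). They turned with principal transcript length offsets for Sdhb (−0.07), Sdhd (−0.07), Cyc1 (−0.06), Uqcrfs1 (−0.18), Uqcrc2 (−0.23), Uqcrb (−0.16), Cox5a (−0.33), Atp5a1 (−0.08), Atp5c1 (−0.28), Atp5f1 (−0.12), Atp5j (−0.15) and Atp5g3 (−0.19). Library totals turned Uqcrc2 (0.00), Cycs (−0.08) and Atp5a1 (−0.06), and a mean CPM above 1 turned Atp5b (0.01). With 1 library left out, the values ranged from −0.65 to 0.22 for Sdha, from −0.07 to 0.34 for Uqcrc2, from −0.17 to 0.29 for Cycs, from −0.16 to 0.33 for Atp5a1 and from −0.30 to 0.26 for Atp5b. Why calls differed between tools was not tested. No paired analysis was possible because the groups share only replicate number 1. Where 1 library was left out, the lone library of its group was assumed to vary like the other group. Counts were low for Atp5s, with 156 to 203 per library, and for Atp5k in control 1, with 131.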
